A study of Mus musculus with 6 samples.

Results

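The paired receptors of myeloid cells are surface proteins whose families hold inhibitory and activating members side by side. Of the 50600 genes in the count table, 10 such receptors were taken by symbol, namely Sirpa, Siglece, Cd300a, Cd300lf, Pirb, Lilrb4a, Cd200r1, Siglec1, Cd300ld and Cd300lb. All 10 were measured and passed the filter on low counts. The symbol Lilrb4a also stands on a second row with no counts in any library, so 11 rows carried the 10 names.

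The receptors were compared between macrophages of the pancreatic islets, the hormone-secreting clusters of the pancreas, and macrophages of epididymal white adipose tissue, a visceral fat pad. Both tissues came from untreated male C57BL/6J mice that were 12 weeks old and ate chow, and no genotype other than the inbred strain was given. Cells of both tissues were sorted by the same gate, alive and positive for CD45, F4/80 and CD64, so that the gate fixes a surface phenotype and not a purified cell type. There were 3 islet and 3 fat libraries of total RNA, numbered 2, 4 and 6 in each tissue. Equal numbers were read as the same mouse, and the labels do not say whether 1 mouse or several went into a library.

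Inhibitory paired receptors carry tyrosine motifs called ITIMs in the part of the protein inside the cell. Once phosphorylated by kinases of the Src family, an ITIM recruits the phosphatases encoded by Ptpn6, Ptpn11 or Inpp5d, which dampen activation. Activating members have short tails and signal through the adaptors encoded by Tyrobp and Fcer1g, which recruit the kinase Syk. In macrophages these receptors read sialic acids, lipids and other self molecules on neighbouring cells and set the threshold for phagocytosis and cytokine release.

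The coding sequences show which of the receptors encode an ITIM. In the longest complete coding sequence annotated for each gene, an ITIM was searched after the most hydrophobic stretch, as isoleucine, leucine, valine or serine, any residue, tyrosine, any 2 residues, and leucine, valine or isoleucine. The search found 3 motifs in Sirpa, 3 in Pirb, 2 in Cd300a, 2 in Cd300lf, 2 in Lilrb4a and 1 in Siglece. It found 0 in Cd200r1, Siglec1, Cd300ld and Cd300lb, whose inner parts spanned 65, 37, 24 and 33 codons, against 74 to 178 codons in the 6 ITIM receptors. A motif is 18 bases of coding sequence, printed in the direction of the gene with the codon of the tyrosine in capitals, to show the docking site that each inhibitory receptor encodes.
Cd300lf, first motif: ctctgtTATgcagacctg
Cd300lf, second motif: gtttcaTATgccgctctg
Siglece: atacatTATgcgaccctc
Cd300a, first motif: gtggaaTATagcacattg
Sirpa, second motif: ctcaccTATgctgacctg
Pirb, second motif: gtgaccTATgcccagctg
Lilrb4a, second motif: gtaaccTATgcccagttg
On GRCm38 the Cd300lf motifs lie at chr11:115117648-115117665 in exon 6 and chr11:115117112-115117129 in exon 7 of 7, on the minus strand. The Siglece motif lies at chr7:43651585-43651602 on the minus strand, in exon 7 of 7. The Cd300a motif is at chr11:114899846-114899863 on the plus strand, in exon 6 of 7. The Sirpa motif is at chr2:129630077-129630094 on the plus strand, in exon 9 of 9. The Pirb motif is at chr7:3712786-3712803 on the minus strand, in exon 15 of 15, and the Lilrb4a motif at chr10:51496194-51496211 on the plus strand, in exon 9 of 9.

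Total counts ranged from 4089980 to 6923475 in the islet libraries and from 7450890 to 9235591 in the fat libraries. Islet libraries correlated with each other at 0.841 to 0.904 across genes and fat libraries at 0.960 to 0.966. The genes behind the sort did not pass the test, with log2 differences, islet minus fat, of 0.86 ± 0.28 for Ptprc, which encodes CD45, 0.58 ± 0.33 for Adgre1, which encodes F4/80, and 0.45 ± 0.25 for Fcgr1, which encodes CD64 (edgeR estimates ± SE). Macrophage markers summed to 0.555% to 0.707% of counts in islet libraries and 0.781% to 0.943% in fat libraries. Heat shock and early response genes took 9.85%, 11.1% and 0.936% of counts in islet libraries 2, 4 and 6, against 2.01% to 2.37% in fat libraries. Islet libraries 2 and 4 thus stood apart. Values with islet library 6 alone against the 3 fat libraries are given beside each called receptor or other gene whose fold change moved by over 1.5 times. They are also given where the call changed. Genes at 0 in that library, cell type markers, Neu1 and the interferon-inducible genes described last are excepted. The fit with islet library 6 alone holds no spread between islet libraries, so its SE and calls rest on the fat libraries. In that fit the log2 differences were 0.69 for Fcgr1 and -0.16 for Adgre1. Monocyte markers summed to 0.0151% to 0.0378% of counts in islet libraries, with Ly6c2 at 0, against 0.415% to 0.500% in fat libraries. Neutrophil markers summed to 0.00438% to 0.00735% in islet libraries, with 7 of 11 at 0, against 0.0261% to 0.0330% in fat libraries. Mmp9 and Csf3r made up most of that sum, and Ly6g, Ngp and Ltf were at 0 in fat libraries. Markers of islet endocrine cells, all 9 of them detected, summed to 0.369% to 0.785% in islet libraries, against 0 to 0.000631% in fat libraries. Adipocyte markers summed to 0.00817% to 0.0173% in islet libraries, with 5 of 7 at 0, against 0.0532% to 0.0617% in fat libraries. Lpl and Fabp4 made up most of that sum. Dendritic cell markers, Siglech among them, summed to 0.0199% to 0.0331% in islet libraries, against 0.0160% to 0.0179% in fat libraries. B cell markers summed to 0.00407% to 0.0189% in islet libraries, against 0.0201% to 0.0295% in fat libraries. Markers of mast cells, eosinophils, T and NK cells, exocrine cells, fibroblasts and endothelium summed to at most 0.00714% per list in islet libraries and 0.0455% in fat libraries. The part of these cells in the receptor values was not tested.

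Among the 10 receptors, islet macrophages carried more RNA of the sialic acid receptor Siglece and of the lipid receptor Cd300lf, and less of Siglec1, Cd200r1 and Pirb. Levels are given as CPM, counts relative to library totals that were scaled by TMM, and differences as log2 of islet over fat from edgeR's quasi-likelihood test, with Benjamini-Hochberg adjusted p over the 12152 genes tested and a threshold of 0.05. At that threshold 2 receptors rose and 3 fell in islet macrophages, and 5 did not pass. Over all genes tested, 8.97% rose and 10.5% fell in islet macrophages, 19.4% in all. The islet libraries lay wholly above the fat libraries for 3 receptors and wholly below them for 5, where 18.2% and 22.3% of all genes did so and 40.6% did either. The median log2 difference was -0.89 over the receptors and 0.006 over all genes tested. The monocyte marker sum given above was lower in every islet library, and in fat libraries it was mostly F13a1. That gene had 2.42, 23.5 and 4.31 CPM in islet libraries 2, 4 and 6, against 3121, 3621 and 3856 CPM in fat libraries 2, 4 and 6. Nr4a1, another marker of that list, did not pass, with a log2 difference of -0.57 ± 0.40 (edgeR adjusted p = 0.378). Which cells carried F13a1 was not tested. Of the neutrophil markers Mmp9 fell, with a log2 difference of -10.90 ± 0.70, while Csf3r rose, with 1.04 ± 0.30 (edgeR adjusted p = 7.49e-05 and 0.0419). The count that fell was 1 when any fat library was left out, with Siglec1 the receptor past the threshold, 2 without islet library 2, 4 without islet library 4 and 5 without islet library 6. Because the RNA came from sorted populations, fewer cells of a type and less RNA per cell cannot be told apart.

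**Figure D1:**
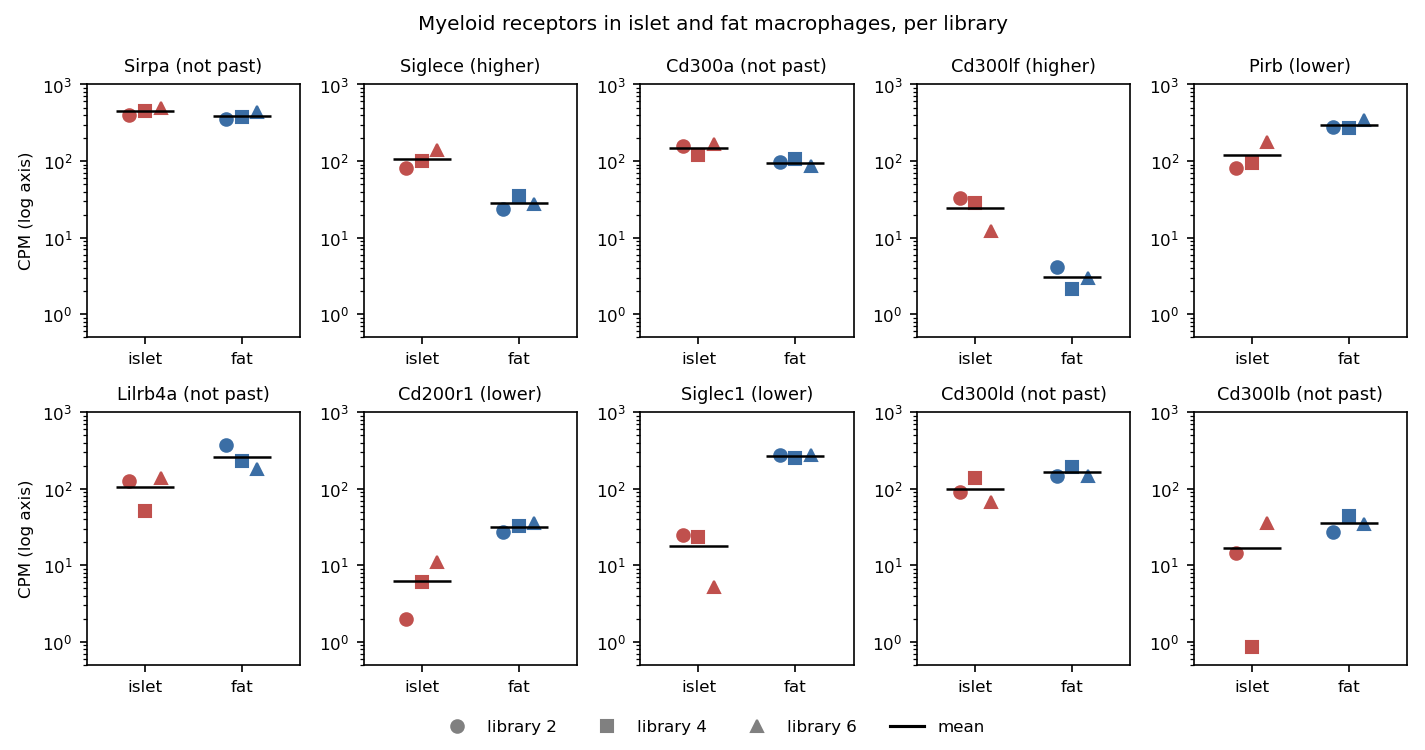
CPM of the 10 receptors (log axis) in each islet library (red, left) and each fat library (blue, right), with the library number as the marker shape and the mean as a line. Siglece and Cd300lf lie higher in all islet libraries, Pirb, Cd200r1 and Siglec1 lie lower in all of them, and Cd300lb runs from 0.860 to 35.4 CPM within the islet group.

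Siglece, a lectin that binds sialic acids and carries an ITIM, rose 3.73-fold in islet macrophages. It lies at chr7:43651070-43660161 on the minus strand. Its level was 82.2, 99.8 and 138 CPM in islet libraries 2, 4 and 6, against 23.9, 34.8 and 27.3 CPM in fat libraries 2, 4 and 6. Every islet library stood above every fat library. The gap between the groups was larger than the whole range within fat and smaller than that within islet. The means were 107 ± 28.4 CPM in islet macrophages and 28.7 ± 5.55 CPM in fat macrophages (SD, n = 3 each). The log2 difference was 1.90 ± 0.28 (SE), with a 95% interval of 1.25 to 2.54 and an edgeR adjusted p of 0.00243. With islet library 6 alone it was 2.19 ± 0.23.

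Cd300lf, an ITIM receptor for phosphatidylserine and other lipids that is also the entry receptor of mouse norovirus, had the largest rise of the 10, at 7.97-fold. It lies at chr11:115116214-115133992 on the minus strand. Its level was 33.1, 28.4 and 12.1 CPM in islet libraries 2, 4 and 6, against 4.07, 2.12 and 2.94 CPM in fat libraries 2, 4 and 6. The groups did not overlap, and islet library 6 was the lowest of the islet libraries. Means were 24.5 ± 11 CPM in islet macrophages and 3.04 ± 0.976 CPM in fat macrophages (SD, n = 3 each). The counts behind them were small, 353 summed over the islet libraries and 84 over the fat libraries. This gave a log2 difference of 3.0 ± 0.50 (95% interval 1.87 to 4.12, edgeR adjusted p = 0.00386), and 1.90 ± 0.55 with islet library 6 alone.

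Cd300a, an ITIM receptor for phosphatidylserine and phosphatidylethanolamine, had 158, 118 and 169 CPM in islet libraries 2, 4 and 6, against 96.3, 105 and 85.8 CPM in fat libraries 2, 4 and 6. The islet values all exceeded the fat values, but library 4 came close in the 2 tissues. It lies at chr11:114890041-114904654 on the plus strand. The log2 difference of 0.63 ± 0.24 did not pass the threshold (95% interval 0.10 to 1.17, edgeR adjusted p = 0.0971). The adjusted p was 0.0394 without islet library 4, and the log2 difference was 0.74 with islet library 6 alone.

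Sirpa, the receptor for the "do not eat me" protein CD47, was the most level of the receptors between tissues. It lies at chr2:129592835-129632228 on the plus strand. Its level was 401, 454 and 493 CPM in islet libraries 2, 4 and 6, against 356, 375 and 436 CPM in fat libraries 2, 4 and 6. The ranges overlapped, with fat library 6 above islet library 2. The log2 difference was 0.21 ± 0.24 with an interval of -0.34 to 0.76 and an edgeR adjusted p of 0.602, which leaves a modest difference in either direction possible at this depth and number of libraries.

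Pirb, a receptor for MHC class I with 3 ITIMs, fell 2.50-fold in islet macrophages. It lies at chr7:3711409-3720391 on the minus strand. Its level was 82.0, 94.9 and 178 CPM in islet libraries 2, 4 and 6, against 278, 267 and 342 CPM in fat libraries 2, 4 and 6. All islet values were below all fat values, and islet library 6 was nearest to them. Means were 118 ± 51.8 CPM in islet macrophages and 296 ± 40.2 CPM in fat macrophages (SD, n = 3 each). The log2 difference was -1.32 ± 0.33 (95% interval -2.07 to -0.57, edgeR adjusted p = 0.0242). The call was lost without islet library 2, at an adjusted p of 0.0784, and without fat libraries 2, 4 or 6, at 0.0797, 0.0634 and 0.0942. Of the 50-base windows of the Pirb transcript with the longest coding sequence, 37.3% also occur in transcripts of other genes, among them its activating partners Lilra6 and Pira2, so that reads could be split between them or dropped.

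Lilrb4a, the ITIM receptor also known as gp49B, lies at chr10:51490956-51496611 on the plus strand. It had 128, 51.0 and 137 CPM in islet libraries 2, 4 and 6, against 376, 233 and 179 CPM in fat libraries 2, 4 and 6. All islet values were below all fat values, with fat library 6 closest to the islet range and islet library 4 far under the other two. The means of 105 ± 47.3 CPM in islet macrophages and 263 ± 102 CPM in fat macrophages (SD, n = 3 each) gave a log2 difference of -1.32 ± 0.42, the same size as that of Pirb. It did not pass the threshold in the main fit, which does not use the pairing (95% interval -2.28 to -0.35, edgeR adjusted p = 0.0610). With the mouse number as a block, the log2 difference became -1.38 ± 0.37 (edgeR adjusted p = 0.0361). It also passed without pairing, with upper-quartile factors in edgeR, DESeq2 and limma voom, at adjusted p values of 0.0458, 0.0127 and 0.0434. The call thus lay near the threshold and depended on the setting, not on the pairing alone. Without islet library 6 the adjusted p was 0.0242.

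Part of the length of Lilrb4a overlaps exons of other genes, and how such reads were counted is not known. The second row with its symbol is a readthrough gene, named Gm49339 in GENCODE M21, whose exons are shared with other genes over 98.9% of their length. Of the exon bases of Lilrb4a, 35.9% are shared with other genes, and 27.8% of its 50-base windows occur in the neighbouring Lilr4b. Lilr4b has no ITIM in the same search. It had 268, 88.9 and 392 CPM in islet libraries 2, 4 and 6, against 684, 478 and 384 CPM in fat libraries 2, 4 and 6, with a log2 difference of -1.04 ± 0.49 and an edgeR adjusted p of 0.182. The count ratio of Lilrb4a to Lilr4b was 0.475, 0.574 and 0.351 in islet libraries 2, 4 and 6, against 0.551, 0.487 and 0.466 in fat libraries 2, 4 and 6. The ratios overlapped between tissues, while the levels of both genes varied several-fold between libraries. The part of shared reads in these ratios was not tested.

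Cd200r1, the receptor for CD200, inhibits through the adaptor DOK2 instead of an ITIM. It lies at chr16:44765736-44794978 on the plus strand. It fell 4.96-fold in islet macrophages, with 2.02, 6.02 and 10.9 CPM in islet libraries 2, 4 and 6, against 27.4, 32.9 and 35.3 CPM in fat libraries 2, 4 and 6. The groups were far apart, and the islet values spread more than the fat values relative to their mean. The islet values rested on 10, 21 and 81 counts. In log2 terms the difference was -2.31 ± 0.53 (95% interval -3.51 to -1.11, edgeR adjusted p = 0.0163). The adjusted p was 0.0543, 0.0606 and 0.0662 without fat libraries 2, 4 and 6. The log2 difference was -3.05 without islet library 6 and -1.62 with islet library 6 alone.

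Siglec1, the sialoadhesin CD169, is a long sialic acid lectin of tissue macrophages without an ITIM, and it had the largest difference of the 10. It lies at chr2:131069220-131086765 on the minus strand. Its level was 24.8, 23.5 and 5.25 CPM in islet libraries 2, 4 and 6, against 273, 256 and 276 CPM in fat libraries 2, 4 and 6. The fat libraries were nearly equal, and each islet library was at least an order of magnitude below them. The means were 17.9 ± 10.9 CPM in islet macrophages and 269 ± 10.9 CPM in fat macrophages (SD, n = 3 each), so Siglec1 fell 15.2-fold. The fitted log2 difference was -3.93 ± 0.53 (95% interval -5.14 to -2.72, edgeR adjusted p = 0.00153), and -5.75 ± 0.35 with islet library 6 alone.

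The 2 sialic acid lectins of the set therefore stood in opposite order in the 2 tissues. There were 3.32, 4.24 and 26.2 Siglece counts for each Siglec1 count in islet libraries 2, 4 and 6, against 0.0875, 0.136 and 0.0988 in fat libraries 2, 4 and 6. For the ITIM receptors Pirb and Siglece the count ratio was 0.998, 0.951 and 1.29 in islet libraries 2, 4 and 6, against 11.6, 7.68 and 12.5 in fat libraries 2, 4 and 6. These ratios are within libraries and do not depend on how libraries were scaled. Neither pair overlapped between tissues, which follows from the separate levels given above and adds nothing to them. By their own calls Siglece and Pirb, both inhibitory, changed in opposite directions.

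The activating receptors did not pass the test. Cd300ld, which couples to the Fc receptor gamma chain, lies at chr11:114982274-114989922 on the minus strand. It had 90.9, 137 and 67.0 CPM in islet libraries 2, 4 and 6, against 148, 195 and 149 CPM in fat libraries 2, 4 and 6. The islet values were all below the fat values, by a small gap between islet library 4 and fat library 2. Its log2 difference was -0.74 ± 0.30 (95% interval -1.42 to -0.05, edgeR adjusted p = 0.127). It passed without islet library 4, at an adjusted p of 0.0271, and its log2 difference was -1.37 with islet library 6 alone.

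Cd300lb, which couples to the adaptor encoded by Tyrobp, was the most variable receptor among the islet libraries. It lies at chr11:114922781-114934386 on the minus strand. Its level was 14.3, 0.860 and 35.4 CPM in islet libraries 2, 4 and 6, against 26.9, 44.0 and 35.1 CPM in fat libraries 2, 4 and 6. Islet library 6 reached the fat range, islet library 2 lay below it, and islet library 4 held 3 counts. The log2 difference of -1.03 ± 0.81 did not pass (95% interval -2.87 to 0.81, edgeR adjusted p = 0.429). It was -2.15 with an adjusted p of 0.0487 without islet library 6, and -0.07 with islet library 6 alone. Within numbers 2, 4 and 6 the log2 ratios of islet to fat for Cd300lb were -0.89, -5.03 and 0.02 (CPM plus 0.5).

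**Figure D2:**
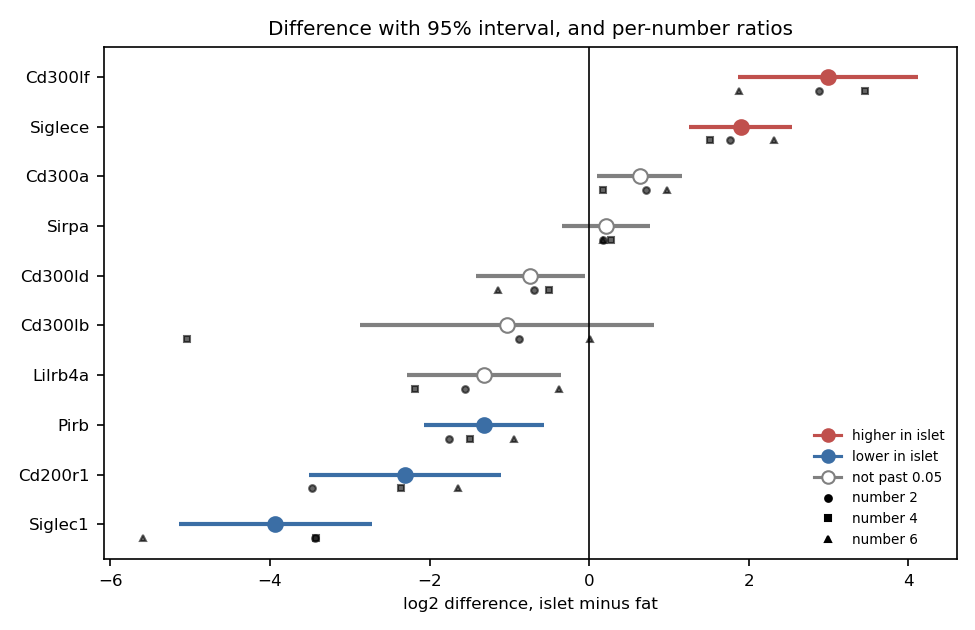
Log2 difference, islet minus fat, for each receptor with its 95% interval from edgeR (large circles, filled where the adjusted p is under 0.05) and the log2 ratio of the islet to the fat library of the same number (small black markers, CPM plus 0.5). The intervals run from -5.14 to -2.72 for Siglec1 to 1.87 to 4.12 for Cd300lf, and Cd300lb has the widest interval and the most scattered ratios.

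Levels were compared between receptors as CPM per kilobase of exon that no other gene shares. In islet macrophages Sirpa came first, with 91.5 ± 9.47 CPM per kilobase, followed by Siglece with 57.7 ± 15.4, Cd300ld with 37.1 ± 13.4, Lilrb4a with 31.4 ± 14.1, Cd300a with 31.3 ± 5.58 and Pirb with 26.4 ± 11.6 (SD, n = 3). The lower islet levels were 5.78 ± 5.97 CPM per kilobase for Cd300lb, 4.76 ± 2.13 for Cd300lf, 2.50 ± 1.53 for Siglec1 and 1.89 ± 1.33 for Cd200r1. In that order the neighbours without overlap were Sirpa above Siglece, and Pirb above Cd300lb, and the ranges of all other neighbours overlapped.

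In fat macrophages Sirpa had 79.2 ± 8.50 CPM per kilobase, Lilrb4a 78.3 ± 30.5, Pirb 66.1 ± 8.99 and Cd300ld 61.8 ± 10.1, and the ranges of each pair of neighbours overlapped. Siglec1 was in rank 5 with 37.6 ± 1.52 CPM per kilobase, below all values of Cd300ld and above all of Cd300a. Cd300a followed with 20.2 ± 2.04 CPM per kilobase, Siglece with 15.5 ± 3.0, Cd300lb with 12.1 ± 2.95 and Cd200r1 with 9.52 ± 1.21, each overlapping the next. Cd300lf was last, with 0.591 ± 0.189 CPM per kilobase, under every value of Cd200r1. Siglece was thus in rank 2 in islet macrophages and in rank 7 in fat macrophages. Siglec1 was in rank 9 in islet macrophages and in rank 5 in fat macrophages. For Lilrb4a the length rests on the exon bases that are its own, so its place is unsure. The places of Pirb and Cd300lf are unsure too. Pirb was divided by 4471 exon bases, although 37.3% of its transcript windows occur in other genes, against 27.8% for Lilrb4a. Cd300lf was divided by 5149 exon bases, while its transcript with the longest coding sequence has 1885 bases. Ranks with other lengths were not tested.

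Summed over the 10 receptors, the level per kilobase was 265, 270 and 335 in islet libraries 2, 4 and 6, against 392, 381 and 369 in fat libraries 2, 4 and 6. ITIM receptors made up 83.7%, 78.9% and 87.6% of that sum in islet libraries 2, 4 and 6, against 71.6%, 64.8% and 68.2% in fat libraries 2, 4 and 6. Siglec1 made up 1.31%, 1.22% and 0.220% in islet libraries 2, 4 and 6, against 9.75%, 9.40% and 10.5% in fat libraries 2, 4 and 6. The adaptor-coupled receptors Cd300ld and Cd300lb made up 14.8%, 19.2% and 11.2% in islet libraries 2, 4 and 6, against 16.6%, 23.3% and 18.5% in fat libraries 2, 4 and 6. The ITIM share was higher in every islet library than in any fat library, while the share of the adaptor-coupled receptors overlapped between tissues. These are shares of a sum that was itself lower in every islet library than in any fat library. Cd300ld and Cd300lb are the only activating receptors in it, so the shares do not measure the balance of inhibitory and activating receptors in these cells.

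**Figure D3:**
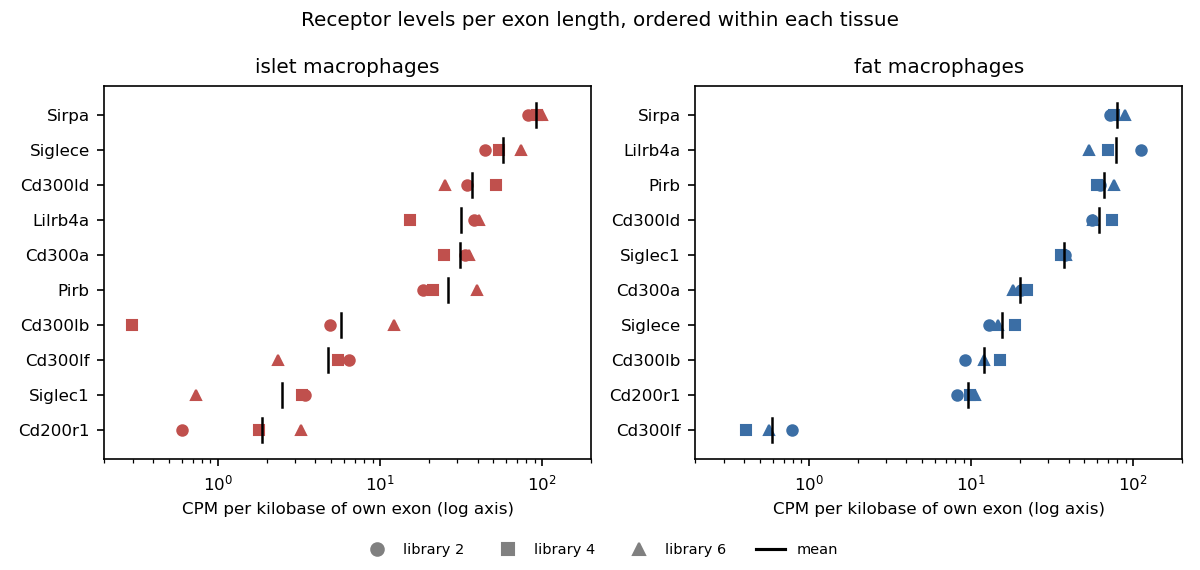
CPM per kilobase of own exon (log axis) of the 10 receptors in the islet libraries (left panel) and the fat libraries (right panel), each panel in order of its mean, shown as a black line. Sirpa leads in both panels, Siglece is in rank 2 in islet macrophages and in rank 7 in fat macrophages, and Cd300lf is last in fat macrophages at 0.591 CPM per kilobase.

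Cd300a, Cd300lb, Cd300ld and Cd300lf belong to a cluster of 11 Cd300 genes that spans 244 kilobases, chr11:114890041-115133992. Of the 8 cluster genes tested, 2 rose and 2 fell in islet macrophages, where 8.97% of all genes rose and 10.5% fell. Cd300c2, an adaptor-coupled activating receptor, rose beside Cd300lf and lies next to Cd300ld. It had 154, 176 and 63.0 CPM in islet libraries 2, 4 and 6, against 16.9, 14.6 and 14.1 CPM in fat libraries 2, 4 and 6. Every islet value exceeded every fat value, and the log2 difference was 3.11 ± 0.40 (edgeR adjusted p = 0.00116), or 1.97 ± 0.26 with islet library 6 alone. The count ratio of Cd300c2 to its neighbour Cd300ld was 1.70, 1.29 and 0.942 in islet libraries 2, 4 and 6, against 0.115, 0.0750 and 0.0949 in fat libraries 2, 4 and 6.

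Cd300ld2 and Cd300ld4 fell, with 0 counts in all 3 islet libraries and means of 5.32 ± 1.69 and 3.09 ± 0.0837 CPM in fat macrophages (SD, n = 3). Against a floor of 3 counts per islet library, Cd300ld2 was at least 8.55-fold lower (edgeR adjusted p = 0.00712). On the same floor Cd300ld4 was at least 4.96-fold lower (edgeR adjusted p = 0.0139). Cd300ld3 had a log2 difference of -0.20 ± 0.45 (edgeR adjusted p = 0.805), and Cd300c, Cd300ld5 and Cd300e had too few counts to be tested. Of the 50-base windows of Cd300lf, Cd300ld and Cd300a, 6.43%, 3.89% and 3.31% occur in other genes, all of them in genes of this cluster for Cd300ld. The cluster thus held genes that rose, among them inhibitory Cd300lf and activating Cd300c2, and genes that fell.

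**Figure D4:**
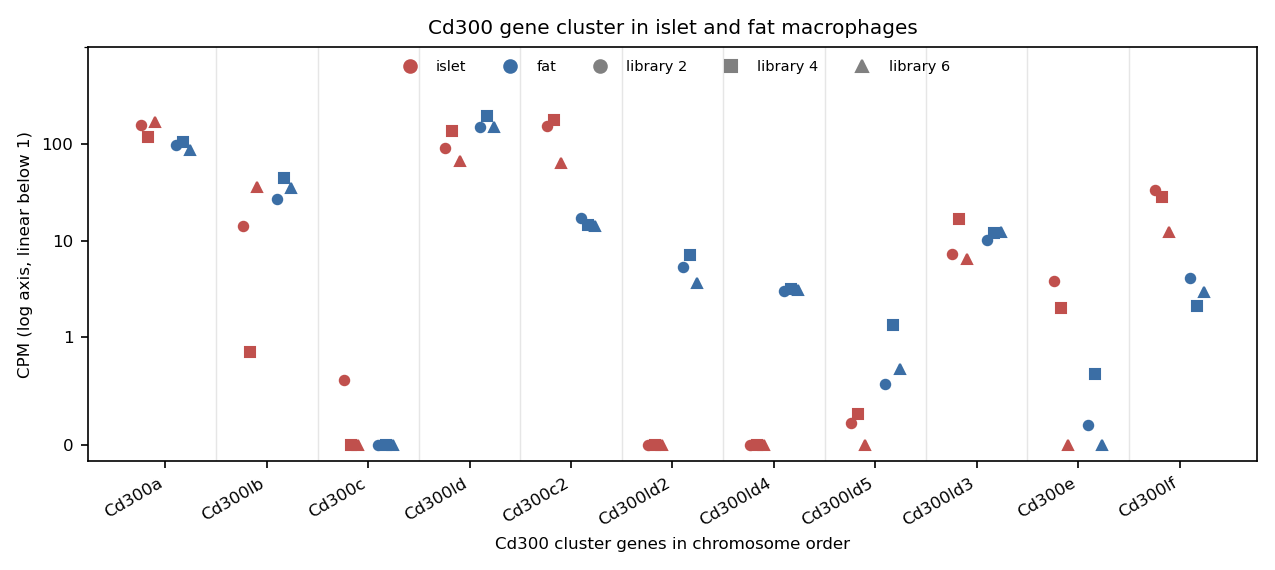
CPM of the 11 genes of the Cd300 cluster in chromosome order (log axis, linear below 1), with islet libraries in red at the left and fat libraries in blue at the right of each gene, and the marker shape for the library number. Cd300c2 and Cd300lf are higher in all islet libraries, and Cd300ld2 and Cd300ld4 are at 0 in the islet libraries.

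A promoter sequence, from 250 bases before to 50 bases after the annotated start, was present in the RefSeq table (GRCm38.p6) for 6 of the receptors. Because SPI1, a master factor of myeloid genes also known as PU.1, binds purine-rich sites, the letters GAGGAAGT were searched on both strands. They occur in 3 of the 6, Cd300lf, Pirb and Cd300ld, and in 3.2% of the 32851 promoters in the table. Cd300a, Siglece and Cd300lb hold no match. The windows around the matches are given in the direction of the gene, with the match in capitals, to show the same letters in Cd300lf, which rose, Pirb, which fell, and Cd300ld, which did not pass.
Cd300lf: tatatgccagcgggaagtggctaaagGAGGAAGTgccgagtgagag
Pirb: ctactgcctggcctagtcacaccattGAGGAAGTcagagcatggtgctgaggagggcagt
Cd300ld: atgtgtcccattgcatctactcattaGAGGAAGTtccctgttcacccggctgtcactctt
The windows lie on the minus strand at chr11:115133973-115134018 for Cd300lf, chr7:3720469-3720528 for Pirb and chr11:114989996-114990055 for Cd300ld. The match begins at the start of Cd300lf, 120 bases before that of Pirb and 143 bases before that of Cd300ld. A match describes the letters and is not a measured binding site.

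Other paired receptors of myeloid cells were described from a list of 63 symbols, 52 of which were in the table and 38 of which were tested. Of these, 8 rose and 9 fell in islet macrophages, or 21.1% and 23.7%, against 8.97% and 10.5% of all genes, and 21 did not pass. Their median log2 difference was -0.15, with Lilra6, Cd300ld2 and Cd300ld4, which lacked islet counts, entered at their bound. The counts that rose were 5, 3, 4 and 5 without islet library 2 and without fat libraries 2, 4 and 6, and the count that fell was 5 without fat library 4.

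Among those that rose, Siglech, a receptor that signals through the adaptor of Tyrobp, had 173, 266 and 124 CPM in islet libraries 2, 4 and 6, against 31.2, 38.3 and 23.4 CPM in fat libraries 2, 4 and 6. Its log2 difference was 2.60 ± 0.35 (edgeR adjusted p = 0.00140), or 1.93 ± 0.25 with islet library 6 alone. Clec5a, another partner of that adaptor, rose with a log2 difference of 2.12 ± 0.25 (edgeR adjusted p = 0.000731). Trem2, a lipid receptor that also uses it, rose with a log2 difference of 1.65 ± 0.32 (edgeR adjusted p = 0.00814), a call lost without fat library 2, at 0.0537. Among those that fell was Fcgr2b, the inhibitory Fc receptor with an ITIM, with 158, 168 and 111 CPM in islet libraries 2, 4 and 6, against 475, 516 and 629 CPM in fat libraries 2, 4 and 6. Its log2 difference was -1.89 ± 0.28 (edgeR adjusted p = 0.00211). Lilra6, an activating partner of Pirb, had 0 counts in the islet libraries and 8.60, 8.23 and 14.1 CPM in fat libraries 2, 4 and 6, at least 16.6-fold lower on that floor (edgeR adjusted p = 0.00203). Pirb itself held 331 to 1318 counts in the islet libraries. The lectin receptor Clec4b1 and Cd300lg, a relative of the Cd300 receptors outside the cluster, fell with log2 differences of -6.20 ± 0.84 and -5.74 ± 0.85 (edgeR adjusted p = 0.00153 and 0.00233). In islet library 6 Clec4b1 was at 0 CPM, and the log2 difference of Cd300lg with that library alone was -4.60 ± 0.57.

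The adaptors and signalling proteins behind the receptors were more often higher than lower. Of 37 genes in the list 35 were tested, and 14 rose, 3 fell and 18 did not pass, or 40% and 8.57%, against 8.97% and 10.5% of all genes. Their median log2 difference was 0.86, the value of the sort gene Ptprc, which stands in this list and did not pass. Without fat libraries 2, 4 and 6 the count that rose was 6, 6 and 7, and the count that fell was 1, 2 and 1. It was 1 without islet library 2 and 5 without islet library 6.

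Src, a kinase of the family that phosphorylates ITIMs, rose. It had 127, 76.5 and 153 CPM in islet libraries 2, 4 and 6, against 3.78, 6.37 and 2.35 CPM in fat libraries 2, 4 and 6, a log2 difference of 4.85 ± 0.45 (edgeR adjusted p = 0.000249). The exchange factor Vav1 and the scaffold Fyb rose with log2 differences of 2.20 ± 0.28 and 2.06 ± 0.27 (edgeR adjusted p = 0.00106 and 0.00126). Ptpn6, the phosphatase that ITIMs recruit, had 195, 222 and 374 CPM in islet libraries 2, 4 and 6, against 116, 124 and 149 CPM in fat libraries 2, 4 and 6. Its log2 difference of 1.03 ± 0.30 passed narrowly (edgeR adjusted p = 0.0439) and was lost with RLE size factors and without any one fat library. Inpp5d and Ptpn11, the other phosphatases, had log2 differences of 0.56 ± 0.26 and 0.07 ± 0.23 (edgeR adjusted p = 0.178 and 0.858). The sign for Ptpn11 turned without islet library 6 and without fat library 4.

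The adaptors of the activating receptors passed narrowly. Tyrobp had 305, 383 and 198 CPM in islet libraries 2, 4 and 6, against 105, 176 and 140 CPM in fat libraries 2, 4 and 6 (log2 difference 1.07 ± 0.32, edgeR adjusted p = 0.0475). Fcer1g had 377, 501 and 403 CPM in islet libraries 2, 4 and 6, against 179, 252 and 257 CPM in fat libraries 2, 4 and 6 (log2 difference 0.90 ± 0.26, edgeR adjusted p = 0.0439). The groups did not overlap for either gene, but the Tyrobp call was lost in 8 of 14 alternatives, with a log2 difference of 0.42 with islet library 6 alone, and the Fcer1g call in 9, the replicate block among them. Syk had a log2 difference of -0.18 ± 0.36 (edgeR adjusted p = 0.778), and its sign turned without islet library 4 and with islet library 6 alone. Without islet library 6 Syk passed as lower, with a log2 difference of -0.66 (edgeR adjusted p = 0.0492).

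Dok2, an adaptor of Cd200r1, had the largest fall among the signalling genes. It had 1.01, 4.01 and 0 CPM in islet libraries 2, 4 and 6, against 120, 167 and 170 CPM in fat libraries 2, 4 and 6, a log2 difference of -6.79 ± 0.86 (edgeR adjusted p = 0.00114). Its relative Dok1 rose, with 48.0, 32.4 and 34.9 CPM in islet libraries 2, 4 and 6, against 8.70, 10.6 and 11.5 CPM in fat libraries 2, 4 and 6. For Dok1 the log2 difference was 1.90 ± 0.30 (edgeR adjusted p = 0.00283). Thus Cd200r1 and Dok2 were both lower in islet macrophages, and Dok1 was higher, with no overlap between tissues for any of them. Rasa1, a Ras regulator that DOK proteins bind, fell with a log2 difference of -1.14 ± 0.25 (edgeR adjusted p = 0.0139), a call lost without islet library 2 and without fat libraries 2 or 6.

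**Figure D5:**
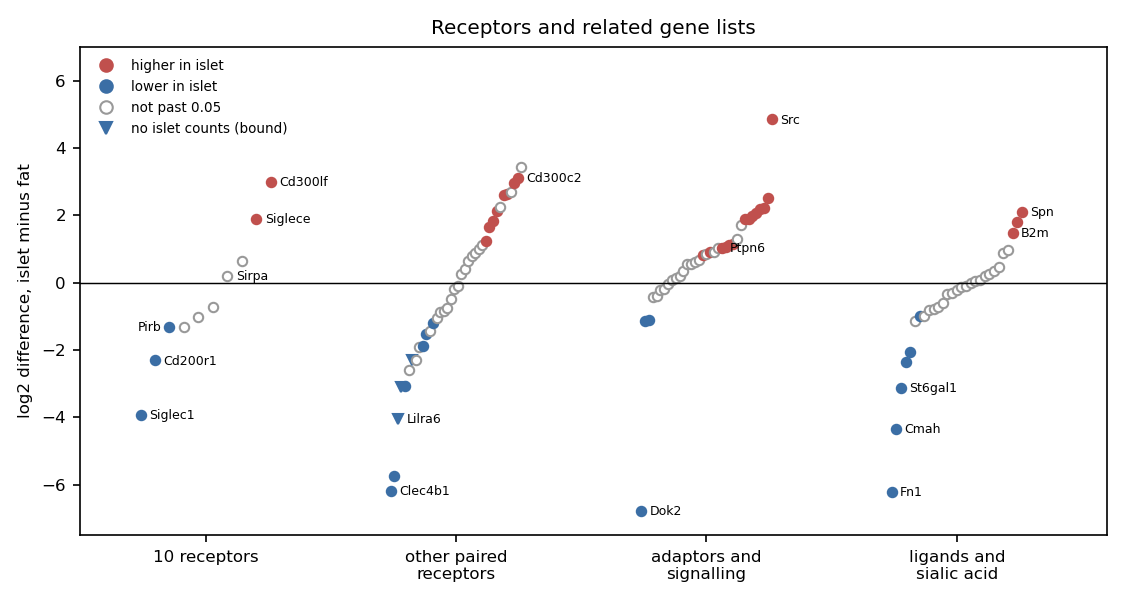
Log2 difference, islet minus fat, of each tested gene among the 10 receptors, other paired receptors, adaptors and signalling genes, and ligands with sialic acid genes, sorted within each group (red higher, blue lower, open not past an adjusted p of 0.05, triangles at the bound for genes with no islet counts). The signalling genes lie mostly above 0, with a median of 0.86. The receptors have a median of -0.89, which lies between Cd300ld and Cd300lb, neither past the threshold.

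A list of 34 genes, 29 of which were tested, held ligands of the receptors and enzymes that build, attach or remove sialic acids. It also held the enzymes Qpct and Qpctl. In islet macrophages 3 rose and 6 fell, or 10.3% and 20.7%, against 8.97% and 10.5% of all genes, and 20 did not pass, with a median log2 difference of -0.21. Without any one fat library the count that rose was 1 and the count that fell was 3, and without islet library 6 the count that rose was 5. The ligands of Sirpa and Cd200r1 did not pass in the macrophages themselves. Cd47 had a log2 difference of -0.33 ± 0.24 (edgeR adjusted p = 0.386), and Cd200 had 0.806, 0 and 3.91 CPM in islet libraries 2, 4 and 6, against 4.26, 3.45 and 0.588 CPM in fat libraries 2, 4 and 6. For Pirb, the class I heavy chains H2-K1 and H2-D1 had log2 differences of 0.46 ± 0.25 and 0.19 ± 0.27 (edgeR adjusted p = 0.247 and 0.669), while B2m, the light chain, rose with a log2 difference of 1.47 ± 0.31 (edgeR adjusted p = 0.0115). The B2m call was lost without fat libraries 2, 4 or 6, at adjusted p values of 0.0772, 0.0829 and 0.0571, and with islet library 6 alone its log2 difference was 0.86 ± 0.24.

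The sialic acid enzymes that changed were lower, both those that convert or attach sialic acid and Neu1, which removes it. Those that make sialic acid itself did not pass or had too few counts to be tested. Most of the sialic acid genes tested did not pass. Neu1 had a log2 difference of -0.98 ± 0.27 (edgeR adjusted p = 0.0358). Sialic acid itself was not measured. St6gal1, which caps glycans with sialic acid, had 16.9, 16.9 and 12.7 CPM in islet libraries 2, 4 and 6, against 136, 132 and 134 CPM in fat libraries 2, 4 and 6. The libraries of each tissue were close together, and the log2 difference was -3.12 ± 0.24 (edgeR adjusted p = 0.000116). Cmah, which converts sialic acid to the glycolyl form that mouse cells carry, had 14.1, 8.89 and 0 CPM in islet libraries 2, 4 and 6, against 145, 145 and 163 CPM in fat libraries 2, 4 and 6 (log2 difference -4.35 ± 0.99, edgeR adjusted p = 0.0159). Its call was lost when any fat library was left out. St6galnac6, a sialyltransferase, fell with a log2 difference of -2.06 ± 0.39 (edgeR adjusted p = 0.00714). Spn, the heavily sialylated CD43 that Siglec1 can bind, rose with a log2 difference of 2.10 ± 0.33 (edgeR adjusted p = 0.00311), or 1.28 ± 0.26 with islet library 6 alone. Fn1, the fibronectin reported to bind LILRB4, fell with a log2 difference of -6.23 ± 1.18 (edgeR adjusted p = 0.00723). With islet library 6 alone the difference was -5.32, and the call was not kept.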

How the data were processed

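Macrophages were sorted from islets and epididymal fat, and libraries were made from 10 ng of total RNA with a stranded low-input kit, per the labels' protocols. The deposited values are raw counts per gene. STAR, featureCounts, Subread 1.6.4 and GRCm38 are named in the submitters' processing notes. The annotation release, the strand setting and the treatment of reads in more than 1 gene were not given in the sources used here, and the last could change counts where exons are shared. Identifiers were matched without version to GENCODE M21 (99.56% found) for coordinates, exons and coding sequences.

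Counts were fitted in R 4.3.3 with edgeR 4.0.16, with filterByExpr, TMM scaling and robust quasi-likelihood tests, tissue as the only term and all 6 libraries in the fit, on 12152 genes. The fit was also run on simulated counts that had the same dispersion per gene in both tissues. That setting leaves out the wider spread of the islet libraries, and the simulation is not used as support here. Limma 3.58.1 and DESeq2 1.42.0 served as alternatives, with other scalings, filters, a replicate block and libraries left out. The design text calls the 2 tissues autologous, so equal numbers were taken as the same animal. Deviations from the tissue means correlated at 0.046, 0.063 and -0.008 for equal numbers and -0.142 to 0.103 for other numbers. P-values measure the spread between these libraries only, which may be technical, and floors cover counting error only.

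The receptors and lists were chosen with earlier results of these data known. Named genes were the receptors, the sort markers, the genes of the Cd300 cluster and the marker lists, as sums and through some members. Up to 4 genes per list and direction were also named, those with the smallest adjusted p among those past the threshold. Tyrobp, Fcer1g, Ptpn6, Inpp5d, Ptpn11, Syk, Dok1, Cd47, Cd200, H2-K1, H2-D1, Lilr4b, Pira2, Cd22, Lair1, Rsad2, Mx1, Isg15 and Neu1 were named after their values were seen. A few further list genes enter the counts and are not reported here.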

Additional observations from a re-analysis of the deposited data

How the results depend on the processing

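Over 14 alternatives for each of the 10 receptors, 121 values kept direction and side of the threshold, 12 newly passed, 7 no longer passed and 0 turned direction. Siglec1, Siglece and Cd300lf passed in all 14 and Sirpa in none. Lilrb4a passed in 6, with the replicate block at an adjusted p of 0.0361, with upper-quartile factors, DESeq2 and voom at 0.0458, 0.0127 and 0.0434, without the filter and without islet library 6. The block changed no other receptor call, and gave 884 genes higher and 1103 lower. Without the filter 5 receptors fell. With islet library 6 alone, which is then assumed to vary like the fat libraries, 2064 genes rose and 2916 fell, and 14 other paired receptors and 10 ligand genes fell. The log2 differences that turned sign were -0.16 for Adgre1, 0.42 for Cd200, 0.29 for Pira2 and 0.38 for Syk with islet library 6 alone. With each library left out in turn Ptpn11 ran from -0.088 to 0.15 and Syk from -0.66 to 0.049. The cause was not tested.

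With each library left out in turn, 466 to 1649 genes rose and 593 to 2022 fell, 2 to 3 receptors rose and 1 to 5 fell, 3 to 11 other paired receptors rose and 5 to 11 fell, 6 to 19 signalling genes rose and 1 to 5 fell, and 1 to 5 ligand genes rose and 3 to 8 fell. Depth limits Cd300lf in fat, Cd200r1 and Cd300lb in islets and the cluster genes with few or no islet counts.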

Other observations

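Among genes outside the receptor set, Lair1, the ITIM receptor for collagens, had 260, 462 and 87.4 CPM in islet libraries 2, 4 and 6, against 75.1, 96.5 and 56.9 CPM in fat libraries 2, 4 and 6. The groups overlapped, the log2 difference was 1.82 ± 0.53 (edgeR adjusted p = 0.0423), and it was 0.12 with islet library 6 alone. The call was lost in 7 of 14 alternatives, among them limma voom and leaving out islet library 2, islet library 4 or any one fat library. Cd22, a Siglec with ITIMs best known from B cells, had 6.85, 15.8 and 1.48 CPM in islet libraries 2, 4 and 6, against 0.0946, 0 and 2.12 CPM in fat libraries 2, 4 and 6, and did not pass (log2 difference 3.43 ± 1.39, edgeR adjusted p = 0.123). Of the 7 B cell markers 3 had 0 counts in all islet libraries, Cd79a and Igkc among them, while Ighm had 146, 216 and 36.8 CPM in islet libraries 2, 4 and 6, against 162, 218 and 240 CPM in fat libraries 2, 4 and 6.

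Siglec1 is an interferon-inducible gene, and its lowest level, 5.25 CPM, was in islet library 6. Other interferon-inducible genes differed in which islet library was highest. All were set side by side after their values were seen, and not from a list of such genes. Bst2 and B2m stand in the dendritic cell and ligand lists. Rsad2 had 90.1, 21.8 and 659 CPM in islet libraries 2, 4 and 6, against 14.8, 18 and 18.6 CPM in fat libraries 2, 4 and 6. Mx1 had 35.1, 18.9 and 220 CPM in islet libraries 2, 4 and 6, against 14.2, 9.02 and 16.1 CPM in fat libraries 2, 4 and 6. Isg15 had 6.45, 5.45 and 65.6 CPM in islet libraries 2, 4 and 6, against 5.39, 3.58 and 3.29 CPM in fat libraries 2, 4 and 6. These were highest in islet library 6. Bst2 had 64.1, 96.0 and 43.2 CPM in islet libraries 2, 4 and 6, against 18.6, 15.7 and 20.4 CPM in fat libraries 2, 4 and 6. B2m had 1913, 2108 and 1203 CPM in islet libraries 2, 4 and 6, against 611, 590.3 and 678 CPM in fat libraries 2, 4 and 6, and both were lowest of the islet libraries in islet library 6, as Siglec1 was.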
